A study of Mus musculus with 20 samples.

Results

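The genes described here carry the symbols of the machinery that moves membrane between compartments of the cell: Rab, Arf and Arl GTPases, Sec genes of the endoplasmic reticulum and its COPII coat, COPI coat subunits, clathrin light chains, AP adaptor subunits, sorting nexins (Snx) and vacuolar protein sorting (Vps) genes. The rule reads the symbol, and expression enters it only in the choice of the brightest probe where a gene has several. A gene entered if the platform annotation gave its probe a single symbol that begins with one of these names followed by a number or subunit letter, and 125 of the 9230 genes so named on the array met the rule. Of these, 124 could be tested: 42 Rab, 5 Arf, 2 Arl, 18 Vps, 16 Sec, 8 COPI, 20 AP, 11 Snx and 2 clathrin genes. The remaining one, Sec61a1, a channel subunit of the endoplasmic reticulum, had a value on only 1 of the 5 cortex arrays of site 2. The symbol rule also took in genes outside vesicle traffic. Examples are Rab10os, a non-coding transcript of the strand opposite Rab10, Sec1, a fucosyltransferase gene, Sec11a and Sec11c of the signal peptidase, Sec14l1, a lipid-binding protein, and Vps72, a chromatin protein.

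Total RNA came from a pool of adult retina of C57/B6 mice and a pool of cortex of postnatal day 1 (P1) Swiss-Webster mice, with no allele or agent named for either. Each pool was run on 5 CodeLink arrays of GE Healthcare (Amersham) at a first site and on 5 at site 2. These are 1-colour arrays on which biotin-labelled RNA is read as 1 intensity per probe. Replicate arrays are technical, made from aliquots of 1 pooled RNA, so every p-value below covers array-to-array spread and none between animals. Tissue, strain and age differ together between the pools and cannot be told apart. In tissue RNA, moreover, fewer cells of a type and less RNA per cell cannot be told apart.

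Rab proteins are GTPases that mark the identity of a membrane and recruit the motors, tethers and fusion factors that act on it. Arf proteins recruit coats, and the COPII, COPI and clathrin coats bend membrane and load cargo for the steps out of the endoplasmic reticulum, within and back from the Golgi, and between Golgi, plasma membrane and endosomes. AP complexes link clathrin or other scaffolds to cargo, while sorting nexins and Vps complexes sort cargo in endosomes. In photoreceptors this machinery carries newly made visual pigment to the outer segment, a modified cilium that is renewed throughout life. In growing cortical neurons it supplies membrane to axons and dendrites and builds synaptic vesicle pathways.

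The 2 pools carried the markers of their labels. All 9 rod markers measured were called higher in retina at both sites, and their summed intensity was 496 to 636 in retina against 29.8 to 39.9 in cortex at the first site, and 729 to 785 in retina against 22.6 to 26.8 in cortex at site 2. All 7 markers of newborn cortical projection neurons were called lower in retina at both sites. Of 12 markers of cycling cells 10 were called lower in retina at each site, with sums of 2.20 to 2.65 in retina against 16.7 to 17.7 in cortex at the first site. Markers of meninges were called lower in retina for 6 of 7 genes at each site. The part of these differences in cell makeup in the results below was not tested. Array medians ran from 0.927 to 0.963 intensity units, so an intensity of 1 is close to the median probe of an array. Replicate 5 of cortex at site 2 stood apart. Its genes lay a median of 0.360 log2 from the mean of their group's other arrays, against 0.0676 to 0.145 on the other 19 arrays, and calls that rest on it are given with and without it.

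A gene was called when its Benjamini-Hochberg adjusted p in limma, taken over all 10339 probes tested, was under 0.05 and the means differed at least 2-fold. At the first site 13 of the 124 genes (10.5%) were called higher in retina, where 11.9% of all probes were, and 14 (11.3%) were called lower, where 13.0% of all probes were. At site 2 the counts were 9 higher (7.26%, background 11.1%) and 12 lower (9.68%, background 13.5%). All 4 shares were below the background of the array. Over both sites 8 genes were called higher in retina each time (6.45%, background 9.31%) and 9 were called lower each time (7.26%, background 10.5%). No gene was called in opposite directions, as was no probe of the array. The sign was the same at both sites for 101 of 124 genes (81.5%, against 82.3% of all probes), and 93 were called at neither (75%, against 70.4%). The median difference of the genes, retina minus cortex, was -0.09 log2 at the first site and -0.11 at site 2, against -0.04 and -0.05 over all probes. Their median size of difference was 0.37 and 0.49 log2, against 0.50 and 0.53 over all probes.

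Large differences were few. Only Rab28, Rab38, Rab3b and Snx7 were called with at least 4-fold at the first site (3.23% of the genes, background 8.75%), and Rab28, Rab3b and Snx7 at site 2 (2.42%, background 8.14%). Every retina array lay below every cortex array for 47 genes at the first site (37.9%, background 27.1%) and for 37 at site 2 (29.8%, background 24.3%). Counting both directions, the tissues were separate for 71 genes at the first site (57.3%, background 53.3%) and for 63 at site 2 (50.8%, background 48.2%). The genes were brighter than the array, with a median intensity at the first site of 3.83 in retina and 3.49 in cortex, against 0.937 and 0.935 over all probes. Their median SD there was 0.110 and 0.128 log2, against 0.162 and 0.165. The part of brightness and spread in these shares was not tested.

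**Figure D1:**
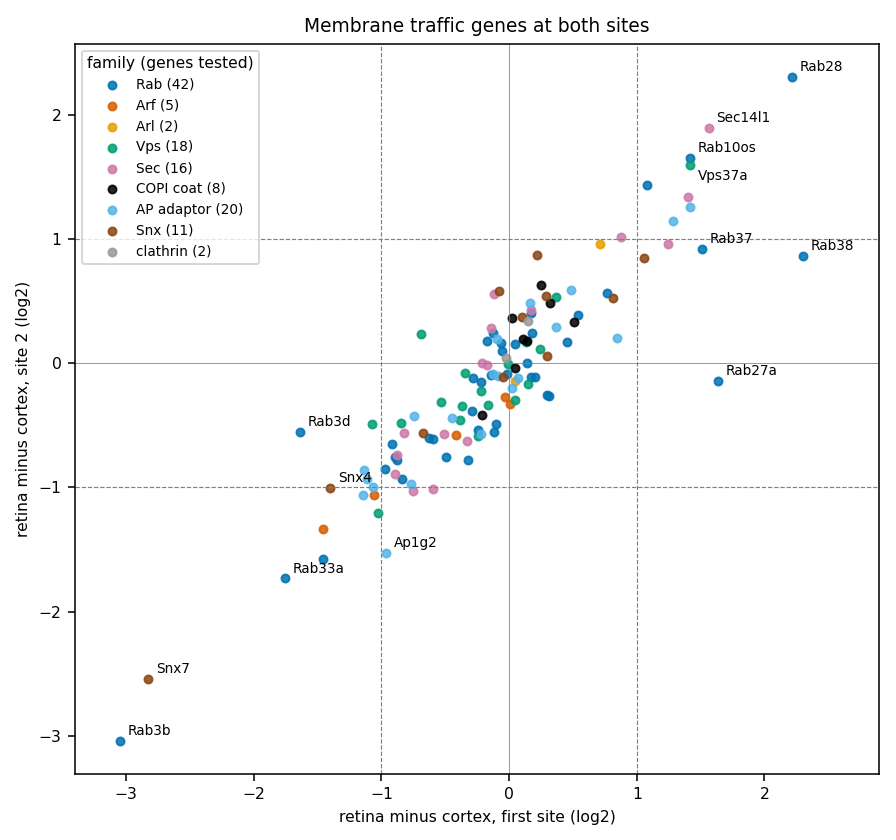
Log2 difference, retina minus cortex, of each of the 124 genes at the first site (x axis) and at site 2 (y axis), coloured by family, with dashed lines at 2-fold. Most genes lie near the diagonal and within 2-fold of 0, Rab28 lies at the upper right end and Rab3b and Snx7 at the lower left end, while Rab38 and Rab27a lie to the right with smaller differences at site 2.

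To show the regulatory sequence beside the largest changes, the promoters of Rab28 and Sec22a (higher in retina) and of Rab3b and Snx7 (lower in retina) are printed below. They are the vesicle traffic genes with the largest mean difference in each direction among those with 1 entry in the RefSeq promoter table of GRCm38.p6. Each is the 250 bases just upstream of the annotated start, written 5′ to 3′ in the direction of the gene, and capitals mark GGGCGG or its reverse complement CCGCCC, the letters of the GC box of many broadly active promoters.
Rab28, chr5:41708180-41708429, minus strand: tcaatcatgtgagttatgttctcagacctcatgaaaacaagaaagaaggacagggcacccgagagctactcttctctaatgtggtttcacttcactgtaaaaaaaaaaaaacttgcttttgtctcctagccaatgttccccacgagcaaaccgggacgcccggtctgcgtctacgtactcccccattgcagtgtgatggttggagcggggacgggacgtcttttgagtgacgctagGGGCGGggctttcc
Sec22a, chr16:35363919-35364168, minus strand: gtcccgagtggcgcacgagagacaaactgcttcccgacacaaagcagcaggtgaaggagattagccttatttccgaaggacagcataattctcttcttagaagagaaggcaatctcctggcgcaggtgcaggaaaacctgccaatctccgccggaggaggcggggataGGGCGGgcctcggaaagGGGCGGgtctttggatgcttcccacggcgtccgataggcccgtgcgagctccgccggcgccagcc
Rab3b, chr4:108878820-108879069, plus strand: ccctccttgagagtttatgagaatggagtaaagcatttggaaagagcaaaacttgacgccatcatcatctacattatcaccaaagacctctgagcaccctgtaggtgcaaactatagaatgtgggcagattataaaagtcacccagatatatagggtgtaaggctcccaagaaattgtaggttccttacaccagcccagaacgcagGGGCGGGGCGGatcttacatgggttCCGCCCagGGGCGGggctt
Snx7, chr3:117868937-117869186, minus strand: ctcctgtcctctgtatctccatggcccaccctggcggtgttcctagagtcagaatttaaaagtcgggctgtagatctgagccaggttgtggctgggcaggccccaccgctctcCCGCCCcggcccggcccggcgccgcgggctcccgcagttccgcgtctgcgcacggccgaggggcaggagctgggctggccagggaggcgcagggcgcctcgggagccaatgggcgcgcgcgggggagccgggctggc
The GC content of these windows was 50.4% for Rab28, 60.8% for Sec22a, 48.8% for Rab3b and 72.4% for Snx7. Rab3b held 4 GC boxes, of which a pair overlapped, Sec22a held 2, and Rab28 and Snx7 held 1 each.

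The table held promoters (250 bases upstream and 50 downstream of a start) for 102 of the 125 genes, some with several starts. Letters were searched in the 250 upstream bases alone. GGGCGG on either strand, overlaps allowed, was present in 6 of 7 promoters (85.7%) of the genes called higher at both sites and in 8 of 10 (80.0%) of those called lower. It was present in 80 of 120 promoters (66.7%) of all the traffic genes and in 32.7% of the 32841 promoters of the table. TAATCC, the letters bound by the photoreceptor factor Crx, was in 0 of 7 promoters of the higher genes and in 0 of 10 of the lower genes, against 2 of 120 (1.67%) of all traffic genes and 6.25% of the table. CANNTG, the E-box of basic helix-loop-helix factors, was in 5 of 7 (71.4%), 5 of 10 (50.0%), 72 of 120 (60.0%) and 66.2%. The GC box share was thus high in both directions of change. These matches describe letters in a window and not bound sites.

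Among Rab genes of secretory vesicles, the Rab3 paralogs did not share a call. Rab3b, Rab3c and, at the first site, Rab3d were lower in retina, while Rab3a, the abundant synaptic vesicle Rab of many neurons, was not called at either site. Of the 8 secretory genes tested, 2 were called higher and 3 lower in retina at the first site, and 0 higher and 2 lower at site 2. Over all probes 11.9% were called higher and 13.0% lower at the first site, and 11.1% and 13.5% at site 2. At an unadjusted p under 0.05 in limma, 2 were higher at site 2. The count was also 2 at an adjusted p under 0.05, where 28.4% of all probes were higher. Rab3b, which acts in regulated secretion, read 1.45, 1.71, 1.73, 1.72 and 1.47 on the retina arrays of the first site, against 12.7, 13.0, 12.5, 14.8 and 13.8 on the cortex arrays. At site 2 it read 1.13, 0.978, 1.19, 1.20 and 1.01 in retina, against 9.20, 9.10, 10.7, 9.62 and 6.81 in cortex. Every cortex array was several times brighter than every retina array. The log2 difference was -3.05 (SE 0.10) at the first site and -3.04 (SE 0.10) at site 2, or 8.29-fold and 8.21-fold, with adjusted p in limma of 5.6e-15 and 6.4e-15. It was the largest difference of all 124 genes in either direction.

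Rab3c, a paralog of Rab3a in neurons, read 0.373, 0.376, 0.302, 0.435 and 0.335 on the first-site retina arrays, against 0.949, 0.847, 1.04, 1.18 and 0.972 on the cortex arrays. The groups did not overlap at either site, and the differences were -1.46 (SE 0.14) and -1.58 (SE 0.14), with adjusted p in limma of 2.9e-08 and 9.5e-09. Rab3d, known from exocrine secretory granules, was dim: it averaged 0.0456 in retina against 0.142 in cortex at the first site, and 0.0586 in retina and 0.0861 in cortex at site 2. The 5th percentile of all intensities was 0.0445, so its retina values lay near the bottom of the scale. Its difference was -1.64 (SE 0.19) at the first site, where the groups were apart, and -0.55 at site 2, where they overlapped. Rab3a differed by 0.45 and 0.17, under 2-fold at both sites (adjusted p in limma 1.5e-05 and 0.042). Rab37, a Rab of secretory granules, was called higher in retina at the first site (1.51, adjusted p in limma 0.00017) and differed by 0.92 at site 2, where it was called without retina replicate 4 (1.04) or cortex replicate 3 (1.05) or 4 (1.18). It too was dim, with means of 0.160 in retina against 0.0562 in cortex at the first site.

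**Figure D2:**
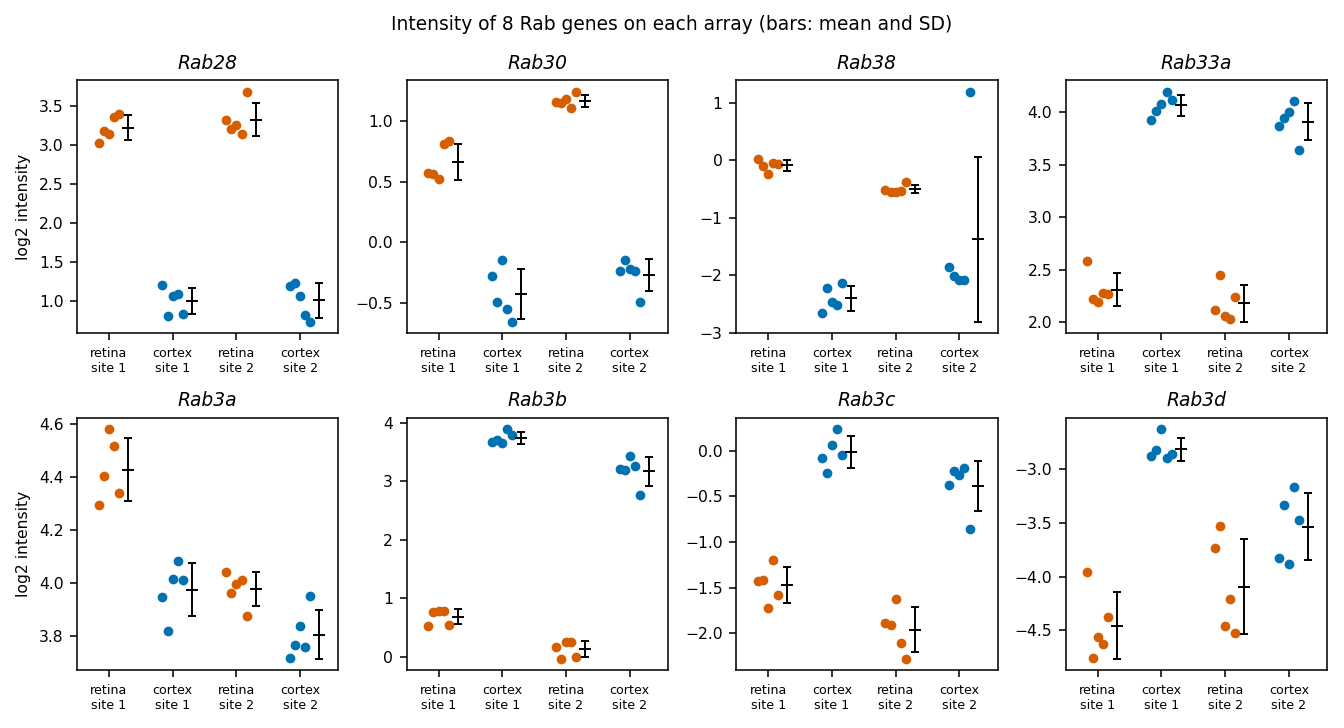
Log2 intensity (y axis) of 8 Rab genes on each array by tissue and site, where site 1 is the first site, 1 point an array, with mean and SD of 5 arrays beside the points. Retina lies above cortex for Rab28 and Rab30 and below it for Rab33a, Rab3b and Rab3c at both sites, and 1 cortex array of site 2 lies above all retina arrays for Rab38.

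Of the 11 Rab genes of the endoplasmic reticulum and Golgi, Rab30 was called higher and Rab33a lower in retina at both sites, and the others were not called. Over all probes 9.31% were called higher and 10.5% lower at both sites. Rab30, a Golgi Rab, read 1.49, 1.48, 1.43, 1.75 and 1.78 in retina at the first site, against 0.826, 0.71, 0.903, 0.685 and 0.636 in cortex. The groups were apart at both sites, and the differences were 1.08 and 1.43 (SE 0.10 each, adjusted p in limma 7.7e-09 and 1.4e-10). Rab33a, a Rab of post-Golgi vesicles in growing axons, read 5.98, 4.68, 4.57, 4.86 and 4.82 in retina at the first site, against 15.2, 16.1, 16.9, 18.3 and 17.3 in cortex. At site 2 it read 4.33, 5.47, 4.16, 4.09 and 4.74 in retina, against 14.6, 15.4, 16, 17.2 and 12.5 in cortex. Its lowest cortex array was more than 2-fold above its highest retina array at both sites. The differences were -1.76 and -1.73 (SE 0.10 each), or 3.38-fold and 3.32-fold lower in retina, with adjusted p in limma of 1.2e-11 and 1.6e-11. Its paralog Rab33b, which acts at the Golgi and in autophagy, differed by -0.28 and -0.12. Under 2-fold but with separate groups at both sites, Rab6a, a Golgi Rab, differed by -0.88 and -0.78 and Rab2a, which acts between endoplasmic reticulum and Golgi, by -0.49 and -0.76. Rab1a, the Rab of endoplasmic reticulum to Golgi transport, differed by 0.05 and 0.15 with overlapping groups.

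No Rab of early or late endosomes was called at either site among 8 tested in limma, where 24.9% (first site) and 24.6% (site 2) of all probes were. At an unadjusted p under 0.05, 2 were higher and 3 lower in retina at the first site and 3 higher and 3 lower at site 2. At an adjusted p under 0.05, 1 was higher and 3 lower at the first site, against 28.6% and 31.3% of all probes. At site 2, 3 were higher and 2 lower at that level, against 28.4% and 32.1%. Rab5a, which controls early endosome fusion, differed by -0.22 and -0.16, and Rab7, the late endosome Rab, by -0.29 and -0.38. Rab4a, a Rab of fast recycling, differed by -0.32 and -0.78, and Rab20, an endosomal Rab, by 0.77 and 0.57 with separate groups. Rab24 differed by 0.18 and 0.40 and Rab4b by -0.13 and 0.24. With Rab20 these were the 3 higher at site 2 at an adjusted p under 0.05.

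Rab28 was the 1 gene called among the 11 recycling, ciliary and polarised traffic Rabs and partners, and the Rab with the largest difference towards retina by the mean of both sites. In humans, loss of RAB28 causes a cone-rod dystrophy. It read 8.11, 9.07, 8.82, 10.2 and 10.5 in retina at the first site, against 2.30, 1.76, 2.10, 2.14 and 1.79 in cortex. At site 2 it read 9.96, 9.23, 9.49, 8.84 and 12.8 in retina, against 2.30, 2.35, 2.10, 1.77 and 1.67 in cortex. Over both sites the lowest retina array read 8.11 and the highest cortex array 2.35. The differences were 2.21 (SE 0.12) and 2.30 (SE 0.12), or 4.64-fold and 4.93-fold, with adjusted p in limma of 6.1e-12 and 3.5e-12. Of the other 10 genes none was called in either direction, where 24.9% (first site) and 24.6% (site 2) of all probes were. With an adjusted p under 0.05 in limma at any size, 4 of the group (first site) and 5 (site 2) were lower in retina. Of all probes 31.3% and 32.1% were lower at that level. Rab13 was higher at site 2 by 0.25 (adjusted p in limma 0.039). Rab17 and Rab25, among the 5 dimmest genes, differed by 0.31 and -0.26 and by -0.24 and -0.54 and did not pass the test. Rab10, which acts in polarised exocytosis, differed by -0.84 and -0.93, Rab12 by -0.97 (called at -1.0 without cortex replicate 2) and -0.85, and Rab23, a Rab that dampens Hedgehog signalling, by -0.89 and -0.75. All were under 2-fold with separate groups at both sites, but quantile normalization called Rab12 at the first site (-1.01) and Rab10 at site 2 (-1.05).

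The genes tied to transport towards the photoreceptor cilium did not share a direction. Of the 6 tested, Rab28 was called higher (background 9.31%) and Arf4 lower (background 10.5%) in retina at both sites. Arf4, which binds a sorting signal of rhodopsin at the Golgi, read 15, 13.2, 11.6, 12.5 and 12.9 in retina at the first site, against 25.3, 28.4, 26.4, 25.9 and 29.6 in cortex. Every cortex array was brighter than every retina array at both sites, and the difference was -1.06 (SE 0.09, adjusted p in limma 2.5e-09) at each. Rab11a, a Rab of recycling endosomes that acts with Arf4 in that step, differed by -0.62 and -0.60. Rab8a, which acts in ciliary membrane delivery, differed by 0.20 and -0.11 with overlapping groups. Arl3, the GTPase that releases lipidated cargo inside cilia, read 36.4, 35.4, 35.4, 37.3 and 41.6 in retina at the first site, against 22.5, 20.4, 24, 26.0 and 20.9 in cortex. The groups were apart at both sites, but the differences of 0.71 and 0.96 (SE 0.10 each) were 1.64-fold and 1.94-fold and so not called, although at site 2 it reached 1.01 without cortex replicate 1.

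The cargo partners of Arl3, which carry no symbol of the rule, were higher in retina. Of 4 genes of the Arl3 and ciliary cargo list tested, 3 were called higher at both sites, where 9.31% of all probes were. Unc119, which carries myristoylated transducin, averaged 91.2 in retina against 7.34 in cortex at the first site. It was 12.4-fold higher in retina there and 21.4-fold higher at site 2. Bbs2, a subunit of the BBSome that moves membrane proteins in cilia, was 4.37-fold and 5.89-fold higher. Pde6d, which carries prenylated cargo, was 2.51-fold and 2.08-fold higher. Rp2, the GTPase-activating protein of Arl3, differed by -0.10 and -0.14.

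Of 12 genes of melanosomes and other lysosome-related organelles, 2 were called higher in retina at the first site (background 11.9%) and 0 at site 2 (background 11.1%). At an unadjusted p under 0.05 in limma, 2 were higher at site 2. The count was also 2 at an adjusted p under 0.05, where 28.4% of all probes were higher. The difference between sites did not pass the test for either of the 2 called. Rab38, a Rab of melanosome biogenesis, read 1.01, 0.927, 0.844, 0.964 and 0.952 in retina at the first site, against 0.159, 0.214, 0.180, 0.176 and 0.229 in cortex. At site 2 it read 0.697, 0.684, 0.683, 0.694 and 0.772 in retina, against 0.275, 0.248, 0.236, 0.236 and 2.28 in cortex. The groups were apart except for cortex replicate 5 of site 2, which was above all retina arrays. The difference was 2.30 (SE 0.43, adjusted p in limma 0.00013) at the first site and 0.87 (adjusted p 0.094) at site 2, and without that array it was 1.51 (adjusted p 9.6e-11) at site 2. With that array kept, quantile normalization gave 1.15 at site 2 (adjusted p in limma 0.048), which was called. Rab32, its paralog in melanosome transport, differed by 0.54 and 0.39, under 2-fold with separate groups. Rab27a, which links melanosomes to myosin, was called at the first site (1.64, SE 0.47, adjusted p in limma 0.0051) and differed by -0.14 at site 2 (-0.42 without cortex replicate 5, neither passing the test). Its means of 0.0835 in retina against 0.0268 in cortex at the first site lie about the 5th percentile of intensities.

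Most pigment epithelium and melanocyte markers were called higher in retina at both sites, as Rab38 and Rab27a were at the first site. Of 11 measured, 7 were called higher and 1 lower in retina at the first site, and 6 higher and 1 lower at site 2. Rpe65, the isomerase of pigment epithelium, averaged 4.33 in retina against 0.175 in cortex at the first site, and Dct, a melanin enzyme, 3.08 in retina and 0.222 in cortex. The summed intensity, in which Ttr was the largest term, was 62.2 to 66.4 in retina against 56.7 to 74.7 in cortex at the first site, and 53.5 to 57.5 in retina against 73.8 to 90.8 in cortex at site 2. The part of pigmented cells in the Rab38 and Rab27a results was not tested. Of the HOPS tethering genes of lysosomes none was called: Vps11 differed by 0.37 and 0.53, Vps16 by -0.53 and -0.31 and Vps33a by -0.01 and -0.01. Of all probes 24.9% (first site) and 24.6% (site 2) were called.

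Of the 5 Arf genes, Arf2 and Arf4 were called lower in retina at both sites (background 10.5%). None was called higher at either site (background 11.9% at the first site and 11.1% at site 2). At an unadjusted p under 0.05 in limma, 0 were higher at either site, and 3 were lower at the first site and 5 at site 2. These counts were the same at an adjusted p under 0.05. Of all probes 28.6% were higher and 31.3% lower at that level at the first site, and 28.4% and 32.1% at site 2. Arf2, a Golgi Arf, read 1.71, 1.84, 1.85, 1.93 and 1.80 in retina at the first site, against 4.97, 4.32, 4.93, 5.73 and 5.29 in cortex. The groups were apart at both sites, with differences of -1.46 and -1.34 (SE 0.10 each) and adjusted p in limma of 1.3e-10 and 5.2e-10. Arf1, the main Golgi Arf that recruits COPI and adaptors, differed by 0.01 and -0.33, and Arf6, the Arf of the plasma membrane, by -0.03 and -0.28. Arf5 differed by -0.42 and -0.58 with separate groups. Arl1, a GTPase of the trans-Golgi, differed by 0.04 and -0.14.

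Sec genes were called in both directions. Of 16 tested, 3 were called higher and 0 lower in retina at the first site, and 3 higher and 2 lower at site 2. Over all probes 11.9% were called higher and 13.0% lower at the first site, and 11.1% and 13.5% at site 2. At an unadjusted p under 0.05 in limma, 8 were lower at the first site. At an adjusted p under 0.05, 7 were lower there, against 31.3% of all probes. Sec22a and Sec22b, relatives of the fusion protein of the endoplasmic reticulum to Golgi step, were both higher in retina at the first site. Sec22a read 8.37, 8.56, 8.67, 8.89 and 7.82 in retina at the first site, against 3.11, 2.97, 3.24, 3.37 and 3.33 in cortex. Its groups were apart at both sites and it differed by 1.40 and 1.34 (SE 0.08 each), with adjusted p in limma of 1.9e-11 and 4.0e-11. Sec22b, a SNARE of that step, differed by 1.25 at the first site and by 0.96, just under 2-fold, at site 2. Without cortex replicate 5 of site 2, which read 11.6 where the other 4 read 8.26 to 8.97, the site 2 difference was 1.04 and was called.

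In the COPII coat, the inner coat paralogs Sec23a and Sec23b differed in opposite directions. Sec23b read 3.65, 3.84, 3.23, 3.90 and 3.45 in retina at site 2, against 1.95, 1.71, 1.82, 2.04 and 1.44 in cortex, and Sec23a read 0.266, 0.251, 0.235, 0.249 and 0.244 in retina, against 0.423, 0.576, 0.610, 0.506 and 0.424 in cortex. Both separated the tissues at both sites. Sec23b differed by 0.88 and 1.02 (SE 0.10 each) and Sec23a by -0.60 and -1.01 (SE 0.14 each), and both were called at site 2 (adjusted p in limma 2.0e-08 and 2.8e-06). These calls lie at the threshold: Sec23b was under 2-fold without retina replicate 2 or 4 or cortex replicate 5 (0.94 to 1.0), and Sec23a without retina replicate 3 or cortex replicate 2 or 3 (-0.99 to -0.94) and under quantile normalization (-0.89). Of the remaining coat genes, Sec24d, a cargo-binding subunit, differed by -0.82 and -0.56, and the cage subunits Sec13 and Sec31a by -0.51 and -0.57 and by 0.17 and 0.43.

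Of the translocon, the channel by which new proteins enter the endoplasmic reticulum, Sec61a2 differed by -0.89 at both sites and Sec61g by -0.88 and -0.74, all under 2-fold with separate groups. Under quantile normalization Sec61a2 was called at site 2 (-1.01). Sec61b differed by -0.21 and 0.01. Sec11a, a catalytic subunit of the signal peptidase, was called lower in retina at site 2 (-1.03, SE 0.06, adjusted p in limma 4.9e-12) and differed by -0.76 at the first site. Sec14l1, which lies outside vesicle coats, was called higher in retina at both sites, with means of 6.98 in retina against 2.36 in cortex at the first site and 6.08 in retina and 1.63 in cortex at site 2 (1.57 and 1.90, SE 0.13 each). Rab10os, likewise outside the Rab proteins, was called higher in retina (1.41 and 1.65) by its brighter probe. Its dimmer probe differed by 0.44 at the first site, where it was not called, and by 1.04 at site 2.

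None of the 8 COPI genes, whose coat carries cargo from the Golgi back to the endoplasmic reticulum, was called at either site. Of all probes 24.9% (first site) and 24.6% (site 2) were called. At an unadjusted p under 0.05 in limma, 2 were higher and 1 lower in retina at the first site and 4 higher and 1 lower at site 2. These counts were the same at an adjusted p under 0.05. Of all probes 28.6% were higher and 31.3% lower at that level at the first site, and 28.4% and 32.1% at site 2. Their differences ran from -0.42 to 0.63 over both sites. Cope differed by 0.32 and 0.48 with separate groups, and Copb1 by -0.21 and -0.42. Copa, the largest subunit, differed by 0.02 and 0.36.

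**Figure D3:**
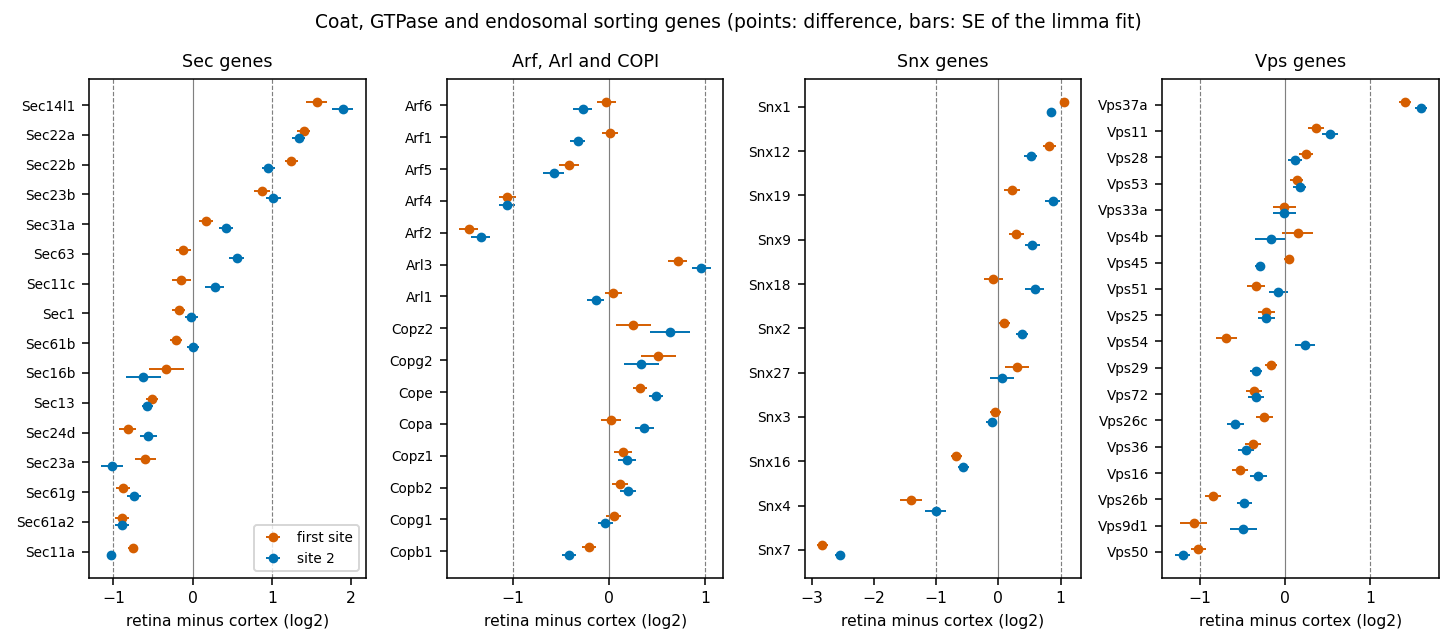
Log2 difference, retina minus cortex (x axis), of Sec, Arf, Arl, COPI, Snx and Vps genes, with 1 point for each site, bars for the SE of the limma fit and dashed lines at 2-fold. The 8 COPI genes all lie within 2-fold, while Sec22a and Vps37a lie above it and Arf2, Snx7 and Vps50 below it at both sites.

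Adaptor subunits of 1 complex moved in different directions. Of 20 AP genes, 2 were called higher and 4 lower in retina at the first site, and 2 higher and 2 lower at site 2. Over all probes 11.9% were called higher and 13.0% lower at the first site, and 11.1% and 13.5% at site 2. In AP-1, the adaptor of the trans-Golgi network and endosomes, the large subunit gene Ap1b1 was higher in retina while the medium and small subunit genes Ap1m1, Ap1s1 and Ap1s2 were lower at the first site. Ap1b1 read 4.17, 4.05, 3.99, 3.59 and 4.05 in retina at the first site, against 1.55, 1.82, 1.30, 1.27 and 1.53 in cortex. It was apart at both sites and differed by 1.42 and 1.26 (SE 0.12 each), with adjusted p in limma of 6.2e-09 and 3.6e-08. Ap1s2, a small subunit, read 18, 17.5, 18.1, 18.7 and 17.3 in retina at the first site, against 37.9, 40.0, 37.6, 41.6 and 40.0 in cortex. It differed by -1.14 there, where it was called, and by -0.86 at site 2, with separate groups at both.

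Ap1m1 differed by -1.11 and -0.94 and Ap1s1 by -1.06 and -0.99, all with separate groups and past 2-fold only at the first site. Both were called at site 2 as well without cortex replicate 5 (-1.03 and -1.06), and Ap1s1 also without retina replicate 1 (-1.01). Ap1g2, a gamma subunit, was called lower in retina at site 2 (-1.53, adjusted p in limma 8.3e-07) and differed by -0.96 at the first site, where it was called without retina replicate 3 (-1.01) or 5 (-1.0) or cortex replicate 3 (-1.01) or 4 (-1.06). The other gamma subunit, Ap1g1, differed by 0.37 and 0.29 and did not pass the test. Ap1m2, the medium subunit of epithelial cells, differed by -0.08 and -0.10.

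In AP-2, the adaptor of clathrin at the plasma membrane, the alpha subunit gene Ap2a2 was higher in retina. It read 4.92, 4.78, 4.66, 4.44 and 4.29 in retina at the first site, against 2.02, 2.01, 1.85, 1.54 and 2.10 in cortex. Its differences were 1.29 and 1.14 (SE 0.10 each, adjusted p in limma 1.8e-09 and 1.0e-08). The other alpha subunit, Ap2a1, differed by -0.09 and 0.19, the beta subunit Ap2b1 by -0.45 and -0.44, and the medium subunit Ap2m1 by 0.03 and -0.20. The clathrin light chains were not called in limma: Clta differed by -0.03 and 0.04 and Cltb by 0.15 and 0.34, of which Cltb at site 2 had an adjusted p of 0.0054.

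None of the 6 AP-3 genes, whose complex serves lysosomes and related organelles, was called in limma, where 24.9% (first site) and 24.6% (site 2) of all probes were. Ap3d1 differed by 0.85 and 0.20, Ap3m1 by -0.75 and -0.43 and Ap3s1 by -0.77 and -0.97, all with adjusted p under 0.05 except Ap3d1 at site 2, and Ap3s1 at site 2 was called without cortex replicate 2 (-1.05). Ap3b2, the neuronal beta subunit, differed by -0.13 and -0.09, Ap3b1 by -0.22 and -0.57 and Ap3s2 by 0.07 and -0.12, and none of these passed the test. The Ap3b1 difference at site 2 rested on cortex replicate 5, which read 6.78 against 1.58 to 1.75 on the other 4, and was -0.17 without it (adjusted p in limma 0.013). Of AP-4, a Golgi adaptor, Ap4m1 was called lower in retina at both sites, averaging 0.231 in retina against 0.510 in cortex at the first site and 0.214 in retina and 0.447 in cortex at site 2. Its differences were -1.14 and -1.06 (SE 0.13 each), and both were -0.93 under quantile normalization, short of 2-fold. Ap4b1 differed by 0.49 and 0.59 and Ap4s1 by 0.16 and 0.49.

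**Figure D4:**
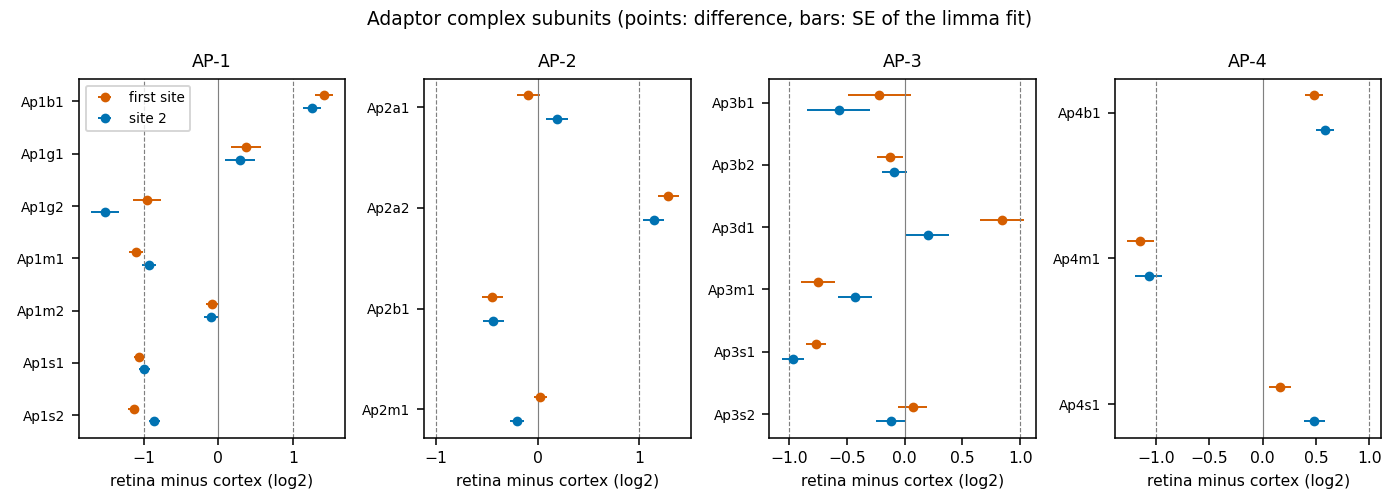
Log2 difference, retina minus cortex (x axis), of the subunit genes of 4 AP complexes, with 1 point for each site, bars for the SE of the limma fit and dashed lines at 2-fold. Ap1b1 and Ap2a2 lie above 2-fold and Ap4m1 below it at both sites, while no AP-3 gene passes 2-fold.

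Among the 11 sorting nexins, Snx7 and Snx4 were called lower in retina at both sites (background 10.5%). These are paired proteins that sort cargo in recycling endosomes and autophagy. Snx7 read 1.05, 1.03, 0.952, 0.999 and 1.02 in retina at the first site, against 7.25, 6.88, 7.18, 7.11 and 7.42 in cortex. At site 2 it read 1.29, 1.11, 1.09, 1.38 and 1.32 in retina, against 7.99, 7.79, 7.35, 7.06 and 5.87 in cortex. No array came between the tissues, and the differences of -2.83 and -2.54 (SE 0.08 each) were 7.10-fold and 5.81-fold, with adjusted p in limma of 6.2e-16 and 3.0e-15.

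Snx4 was dim, with means of 0.130 in retina against 0.343 in cortex at the first site and 0.0822 in retina and 0.165 in cortex at site 2. Its groups were apart, with differences of -1.40 and -1.0 (SE 0.17 each), and the site 2 call was lost without retina replicate 2 or 5 or cortex replicate 1, 3 or 4 (-0.99 to -0.93). Snx1, a retromer-associated nexin, was called higher in retina at the first site (1.06, SE 0.07) and differed by 0.85 at site 2. Its partner Snx2 differed by 0.10 and 0.38. Snx3, which acts with retromer, differed by -0.05 and -0.11 and did not pass the test.

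Vps genes were called in both directions. Of 18 tested, 1 was called higher and 2 lower in retina at the first site and 1 higher and 1 lower at site 2. Over all probes 11.9% were called higher and 13.0% lower at the first site, and 11.1% and 13.5% at site 2. Vps37a, a subunit of the ESCRT-I complex that sorts ubiquitinated cargo, read 1.59, 1.39, 1.45, 1.47 and 1.49 in retina at the first site, against 0.621, 0.559, 0.550, 0.469 and 0.577 in cortex. It was apart at both sites and differed by 1.42 and 1.60 (SE 0.07 each, adjusted p in limma 1.3e-12 and 2.3e-13). Vps28, of the same complex, differed by 0.24 and 0.12, and the ESCRT-II genes Vps25 and Vps36 by -0.22 at both sites and by -0.38 and -0.46.

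Vps50, the subunit that sets the recycling tether EARP apart from the Golgi tether GARP, was called lower in retina at both sites. It read 0.520, 0.574, 0.564, 0.620 and 0.618 in retina at the first site, against 1.42, 1.13, 1.12, 1.15 and 1.10 in cortex. The groups were apart at both sites and the differences were -1.02 and -1.21 (SE 0.09 each, adjusted p in limma 7.4e-09 and 7.2e-10). The first-site difference was -0.99 without retina replicate 1 and -0.96 without cortex replicate 1, short of 2-fold in both cases. Vps51 and Vps53, shared by the tethers, differed by -0.35 and -0.08 and by 0.14 and 0.17. Vps54, the subunit particular to GARP, differed by -0.69 and 0.24, and this change between sites of 0.93 passed the test without reaching 2-fold (adjusted p in limma 0.0061), except that it was called without retina replicate 5 of the first site. The retromer genes Vps26b and Vps29 differed by -0.85 and -0.48 and by -0.16 and -0.34. Vps9d1, which holds a domain of Rab5 exchange factors, was called lower in retina at the first site (-1.08, and -0.94 without retina replicate 1) and differed by -0.49 at site 2.

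Other traffic genes outside the symbol rule were read from lists of regulators, fusion factors and cargo proteins. Of 22 Rab regulators and effectors, 1 was called higher and 3 lower in retina at both sites. Rabgef1, an exchange factor of Rab5, was 7.66-fold and 7.84-fold higher in retina, with means of 16.2 in retina against 2.11 in cortex at the first site. Tbc1d5, a GTPase-activating protein of Rab7, differed by -2.0 and -1.67, Micall1, an effector of Rab8 and Rab35, by -1.62 and -1.10, and Sytl4, an effector of Rab27, by -1.35 and -1.30. Sytl4 was dim, with means of 0.0485 in retina against 0.124 in cortex at the first site, and 0.0784 in retina and 0.193 in cortex at site 2. The alternatives of processing were not read for the genes of these lists. Of 12 Arf regulators, Gga2, an Arf-dependent Golgi adaptor (-1.65 and -1.42), and Psd3, an exchange factor of Arf6 (-1.02 and -1.12), were called lower at both sites and none was called higher at both. Of 6 genes of Rab prenylation and recycling, Yipf4 was called higher at the first site (1.16, background 11.9%).

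Of 25 SNAREs and fusion factors, 4 were called higher and 2 lower in retina at both sites. Vamp8, a SNARE of late endosomes, differed by 2.72 and 2.68, Stx4a, a plasma membrane SNARE, by 1.58 and 1.5, and Nsf, the ATPase that recycles SNAREs, by 1.54 and 1.61. Ykt6, a lipidated SNARE, differed by -2.38 and -2.63 and Stx7, a late endosome SNARE, by -1.45 and -1.47. Of 27 p24 and cargo receptor genes 3 were called higher and 2 lower at both sites. Lman1, a receptor for glycoproteins leaving the endoplasmic reticulum, was 5.56-fold and 5.30-fold higher in retina, while Cnih3 and Cnih2, which escort AMPA receptors, were 6.72-fold and 6.19-fold and 5.00-fold and 5.13-fold lower. Tmed10, a p24 protein, differed by 1.37 and 1.64, and M6pr, a receptor for lysosomal enzymes, by 1.24 at both sites.

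Of 25 endocytic adaptors and dynamins, 3 were called higher and 2 lower in retina at both sites. Pacsin2, a membrane-bending partner of dynamin, was 12.3-fold and 11.8-fold higher, and Dab2, a cargo adaptor, was 15.9-fold and 8.20-fold lower. Dnm1, the dynamin of synapses, differed by 1.14 and 1.80 and Sh3gl2, an endophilin, by 1.08 and 1.10, while its relative Sh3gl3 differed by -3.41 and -3.39. Among 21 tethers 1 gene, Trappc6a, was called at both sites (1.08 and 1.19), and among 11 ESCRT genes 1, Chmp2b (-1.35 and -1.33). The backgrounds of 9.31% higher and 10.5% lower at both sites hold for these lists too.

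The tissue difference itself changed between sites for 1 of the 124 genes (0.806%, background 0.725% in either direction and 0.271% upward). This was Rab3d, whose difference was 1.08 log2 less negative at site 2 (adjusted p in limma 0.032). The call was lost without retina replicate 2, 3 or 4 or cortex replicate 3 of the first site, or retina replicate 1 or 2 or cortex replicate 3 of site 2, and with a replicate block (adjusted p 0.064). It was also lost when intensities under the 5th percentile were raised to it, where the change was just under 2-fold. Rab27a and Rab38 changed more, by -1.78 and -1.44, without passing the test (adjusted p in limma 0.13 and 0.18). Without cortex replicate 5 of site 2 the change of Rab38 was -0.80 with an adjusted p of 0.0018, still under 2-fold. Sec63, a translocon partner, changed by 0.68 (adjusted p in limma 0.0097), Snx19 by 0.65 (0.041) and Vps45, a fusion factor of endosomes, by -0.34 (0.027), all under 2-fold.

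Within a tissue, 3 genes were called between sites in retina (2.42%, background 6.24%), all of them higher at site 2 (background 4.79%). In cortex 7 were called (5.65%, background 7.21%), of which 4 were higher at site 2 (background 5.29%) and 3 lower (background 1.92%). The median difference, site 2 minus first site, was -0.14 log2 in retina and -0.11 in cortex. Over all probes it was 0.02 and 0.08. With an adjusted p under 0.05 in limma at any size, 50 genes were lower at site 2 in retina (40.3%, background 24.2%). Higher there were 27 (21.8%, background 22.5%). In cortex 45 were lower (36.3%, background 23.7%) and 21 higher (16.9%, background 23.1%). In retina, Snx18, which remodels membranes in endocytosis, read 2.07, 1.74, 1.93, 1.81 and 1.93 at site 2, against 0.703, 0.531, 0.656, 0.813 and 0.531 at the first site, a difference of 1.57. Snx27, a nexin that recycles receptors with retromer, and Vps9d1 were also higher at site 2 in retina (1.21 and 1.16). In cortex Rab27a (1.54), Snx27 (1.45), Ap3d1 (1.31) and Rab11b (1.08) were higher at site 2, and Arf2 (-1.06), Snx4 (-1.05) and Rab24 (-1.04) were lower. The last 3 were under 2-fold without cortex replicate 1 of the first site or 2 of site 2 for Snx4, replicate 4 of the first site or 5 of site 2 for Rab24, and replicate 5 of site 2 for Arf2 (-1.0 to -0.96). Rab27a was dim: its first-site cortex arrays read 0.0190 to 0.0441, all under the 5th percentile of intensities, 0.0445. Without single arrays a further 4 genes passed the threshold between sites, Rab11fip2 in both tissues, and Rab37, Snx18 and Rab38 in cortex (1.01 to 1.21). Snx27 was the 1 gene called in both tissues, and its tissue difference was 0.30 at the first site and 0.06 at site 2. Arf2 was lower at site 2 than at the first site in retina too (-0.93), and its tissue difference was called at both sites.

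**Figure D5:**
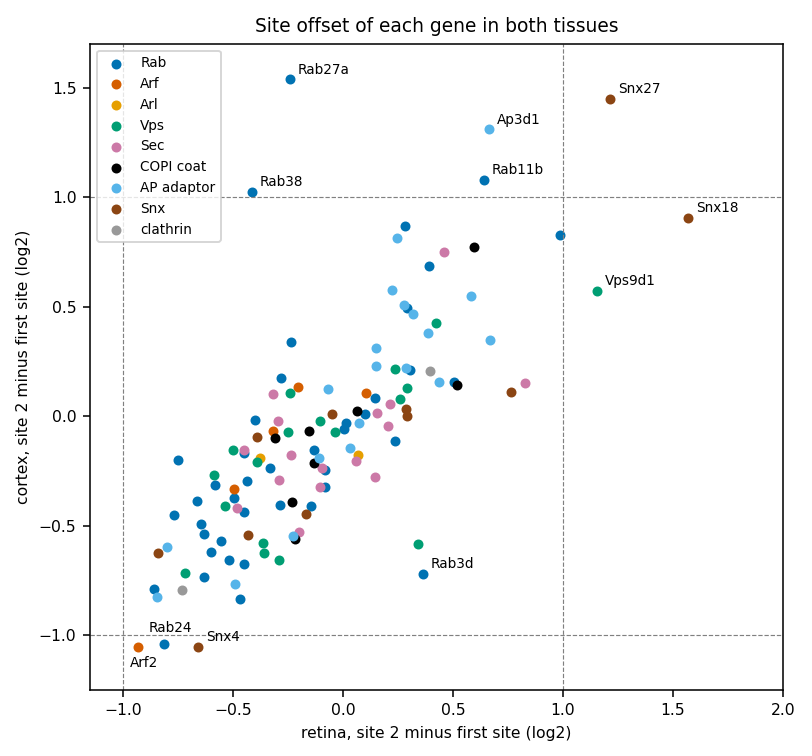
Log2 difference, site 2 minus first site, of each of the 124 genes in retina (x axis) and in cortex (y axis), coloured by family, with dashed lines at 2-fold. Most genes lie along the diagonal, Snx27 and Snx18 lie at its upper end and Arf2 at its lower end, while Rab27a, Rab38 and Rab3d lie off it.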

How the data were processed

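Per the labels, total RNA was labelled with biotin and hybridised by the CodeLink Expression Assay protocol to 20 arrays in 4 groups of 5. The authors deposited a linear intensity for each of 10500 probes on every array. How these were scanned, background-corrected and scaled is not given in the sources used here, and 143 values at or below 0 and like array medians are what the deposited intensities themselves show. Probes were named from the platform annotation: 9378 had 1 gene symbol, 8 several and 1114 none. For a gene with several probes the one with the highest mean log2 intensity stood for it. All 125 genes were found by Entrez identifier in a RefSeq table of GRCm38.p6, used for names, chromosomes and promoters.

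Intensities at or below 0 were set missing along with 2080 blanks, and the rest put on the log2 scale with no further normalization. Probes with a value on at least 3 of 5 arrays in every group were tested, which left out 161. One limma 3.58.1 model (R 4.3.3) of 4 group means over 20 arrays (16 residual degrees of freedom) gave 5 contrasts, 2-sided, adjusted over 10339 probes. The code was tested on simulated data. Means of intensity are back-transformed means of log2 values. Precision is limited by the number of arrays, and dim probes depend on the unknown background step. Tables and plots used Python 3.11.15, numpy 2.4.6, pandas 2.3.3 and matplotlib 3.10.9.

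Genes were named if called at both sites, if among the largest of those called at 1 site only or between sites, or if in a role list. The extremes of a family and the 5 brightest and dimmest were named too. Among genes of the rule, a count of 5 or fewer called was named in full, and some counts at an adjusted p were too. Genes such as Ap1s1, Sec23a, Sec23b and Rab24, which were called, appear only in that way. For lists of other traffic genes up to 3 in each direction were named, and some other genes that did not pass were named after their values were seen. The genes and lists were chosen with earlier results of these data known. Alternatives were quantile normalization, floors at the 5th and 25th percentiles of intensity, complete probes, the arrays of 1 comparison alone, a replicate block, each array left out, the dimmer probe of a gene, and no fold threshold.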

Additional observations from a re-analysis of the deposited data

Results flagged for a closer look

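In 30 of 227 groups of 4 or 5 arrays with a value tested for the named genes (13.2%, where chance flags about 5%), 1 array lay far from the others. Cortex replicate 5 of site 2 gave 12 of these. It was low for Ap2a2 (2.08), Ap3d1 (5.27), Arl3 (15.4), Cltb (8.64), Copz2 (0.133), Rab30 (0.711), Rab3c (0.550) and Sec14l1 (1.27), and high for Ap2m1 (50.7), Ap3b1 (6.78), Rab38 (2.28) and Sec22b (11.6).

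In retina at the first site, replicate 1 was apart for Arl1 (40.7), Rab33a (5.98), Rab6a (4.07) and Vps9d1 (0.649), replicate 3 for Rab32 (3.29), and replicate 4 for Ap1g2 (0.125) and Ap3s1 (8.33). In cortex at the first site, replicate 1 was apart for Vps50 (1.42), replicate 2 for Ap4m1 (0.409), Copz2 (0.113) and Sec14l1 (3.52), replicate 3 for Rab3d (0.162) and replicate 5 for Snx27 (0.121). In retina at site 2, replicate 3 was apart for Rab10os (3.22) and replicate 5 for Rab38 (0.772) and Rab6a (5.00). In cortex at site 2, replicate 1 was apart for Rab11fip2 (0.0700) and replicate 4 for Snx1 (1.02).

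The retina minus cortex difference of Rab3d changed between sites by 1.08 log2 in the interaction test of limma (adjusted p = 0.032, from 0.019 to 0.064 over the alternatives other than the floor at the 25th percentile).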

How the results depend on the processing

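With no fold threshold in limma, 26 genes were higher (21%, against 28.6% of all probes) and 46 lower (37.1%, against 31.3%) in retina at the first site, and 34 were higher (27.4%, against 28.4%) and 50 lower (40.3%, against 32.1%) at site 2. Further, 5 changed between sites (4.03%, against 3.98%), and 77 in retina (62.1%, against 46.7%) and 66 in cortex (53.2%, against 46.8%) differed between sites. Lower at site 2 were 50 in retina (40.3%, against 24.2%) and 45 in cortex (36.3%, against 23.7%). The genes were brighter and varied less between arrays than the probes of the array, and the part of this in these shares was not tested. Leaving out each array in turn gave 13 higher in every case and 12 to 15 lower at the first site, 8 to 10 higher and 10 to 14 lower at site 2, 0 to 2 changed between sites, and 3 to 4 in retina and 6 to 9 in cortex between sites. Without cortex replicate 5 of site 2, 10 were higher and 14 lower at site 2. The count of genes whose tissue difference changed between sites was 0 in limma with a floor at the 5th percentile, at the 25th percentile and with a replicate block, with 31, 41 and 31 genes at an unadjusted p under 0.05. The main fit also had 31 at that level. At an adjusted p under 0.05 the counts were 5, 8 and 3, against 5 in the main fit (4.03%, and 3.98% of all probes). The replicate block moved no other count. Arrays with the same number did not deviate together. Their correlations lay between -0.078 and -0.020 for first-site pairs and between 0.0034 and 0.043 for those of site 2. No pairing by number was thus seen, and a shared run order was not tested.

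Of 45 called results of the genes named by rule, 34 held under every alternative run and none reversed. These leave out genes named only through a small count: Ap1s1 at the first site, and Sec23a and Sec23b at site 2. The calls of Sec23a and Sec23b were lost under some alternatives, as given above. Quantile normalization ended the calls of Ap4m1 (-0.93 at both sites), Snx1 at the first site (0.99), Vps50 at the first site (-0.97) and Snx4 at site 2 (-0.80). It also ended the call of Sec23a at site 2 (-0.89). It added calls of Rab12 at the first site (-1.01) and of Ap1m1 (-1.05), Ap1s1 (-1.11), Ap3s1 (-1.10) and Rab10 (-1.05) at site 2. Added at site 2 too were Sec61a2 (-1.01), Rab37 (1.13) and Rab38 (1.15). The floor at the 25th percentile ended those of dim genes: Rab37 (0.07), Rab27a and Rab3d (no difference left, both groups at the floor), and Snx4 (-0.82 and -0.01). The floor at the 5th percentile left Rab27a at 0.91. These floors set dim values equal by construction, and the cause of the other changes was not tested. Signal over background limits all results on genes near the 5th percentile of intensities, 0.0445.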
